A study of Mus musculus with 10 samples.

Results

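The Hox cluster genes were described in ATAC-seq peak lists of mouse neural stem cells with and without the chromatin protein Smchd1. A peak belonged to them when its summit lay inside 1 of 38 listed Hox genes or within 5 kb of one, in the RefSeq gene table of the build GRCm38.p6. By this rule 32 of 88159 peaks were taken in the Smchd1 fl/fl female list, 40 in the Smchd1 del/del female list, 25 in the Smchd1 fl/fl male list and 44 in the Smchd1 del/del male list, each list being reduced to the same length. The 38 genes are 38 of the 49939 genes of that table, 10 in the Hoxa cluster, 10 in Hoxb, 9 in Hoxc and 9 in Hoxd. Overlapping peaks of the 4 lists were merged into loci, which gave 55 Hox loci among 114175 loci in all.

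ATAC-seq maps open chromatin through the places where the transposase Tn5 inserts adapters. The cells were neural stem cell lines of the strain C57BL/6, derived at E14.5 from embryos with floxed Smchd1 alleles, and the comparison was del/del against fl/fl within each sex. There were 3 libraries in each female group and 2 in each male group. Per the labels' protocols, the lines received the retrovirus MSCV-Cre-puro, puromycin followed after 24 h and cells were taken at day 7; this text stands with the fl/fl samples too, and which vector they received is not stated there. The libraries of a group may come from separate embryos or lines, which the labels do not state. Descriptions of the male samples read female, while their titles and sex fields read male, and the titles were followed.

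Hox genes encode homeodomain transcription factors that give cells their identity along the body axis. They stand in clusters in which gene order follows the order of expression, the low-numbered 3′ genes in the hindbrain and the high-numbered 5′ genes in the trunk, tail and limbs. In the forebrain the clusters are held silent by Polycomb complexes, and Trithorax proteins act against that silencing. Smchd1, a protein of the SMC family known for silencing on the inactive X chromosome, has also been studied for contacts within and around the Hox clusters, the question behind a look at these genes.

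Start sequences are shown for 3 Hoxd genes whose start window was overlapped by peaks. The 300 bases run from 250 before to 50 after the RefSeq start, on the plus strand of GRCm38.p6. Among the 88159 strongest peaks of each list, the Hoxd9 and Hoxd3 windows were overlapped by a peak in both del/del lists and in neither fl/fl list, and the Hoxd1 window in all 4. The whole fl/fl female list holds weaker peaks that overlap the Hoxd9 and Hoxd3 windows. Peaks covered the start of Hoxd9 and of Hoxd1, while at Hoxd3 they reached only the last bases of the window, past the start. Capitals mark matches, on either strand, to the GC box GGGCGG, the CCAAT box, the TATA box TATAAA, the letters CCCTC, which lie within the CTCF motif, and the homeodomain motif TAATTA.
Hoxd9, chr2:74697513-74697812: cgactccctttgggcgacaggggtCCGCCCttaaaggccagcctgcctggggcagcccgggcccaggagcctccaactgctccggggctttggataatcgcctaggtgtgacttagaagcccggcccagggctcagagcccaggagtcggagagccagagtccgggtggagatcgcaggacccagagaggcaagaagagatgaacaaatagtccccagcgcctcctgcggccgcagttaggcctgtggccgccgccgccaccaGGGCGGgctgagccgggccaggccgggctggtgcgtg
Hoxd3, chr2:74711743-74712042: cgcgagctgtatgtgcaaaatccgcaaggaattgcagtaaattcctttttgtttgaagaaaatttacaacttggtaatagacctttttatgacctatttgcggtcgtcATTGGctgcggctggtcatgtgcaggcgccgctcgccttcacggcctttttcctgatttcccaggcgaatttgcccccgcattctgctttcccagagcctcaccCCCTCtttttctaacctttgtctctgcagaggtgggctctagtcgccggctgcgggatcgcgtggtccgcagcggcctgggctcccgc
Hoxd1, chr2:74762730-74763029: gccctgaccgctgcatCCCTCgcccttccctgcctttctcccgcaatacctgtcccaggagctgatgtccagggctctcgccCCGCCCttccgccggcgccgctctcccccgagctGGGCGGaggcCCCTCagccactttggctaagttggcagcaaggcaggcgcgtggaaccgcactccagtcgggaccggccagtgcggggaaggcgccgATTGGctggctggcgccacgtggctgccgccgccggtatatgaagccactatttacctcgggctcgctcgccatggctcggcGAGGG
The Hoxd9 window held 2 GGGCGG and 20 CG dinucleotides, the Hoxd3 window 1 CCAAT, 1 CCCTC and 20 CG, and the Hoxd1 window 2 GGGCGG, 1 CCAAT, 3 CCCTC and 29 CG. None of the 3 windows held TATAAA or TAATTA.

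Each group was given as 1 peak list, called on its libraries together, so replicate spread is unknown and no difference below was tested. The lists rested on 144613215 tags in fl/fl females, 139318421 in del/del females, 91734730 in fl/fl males and 74674218 in del/del males, and they held 130103, 104316, 101322 and 88159 peaks on chromosomes 1 to 19, X and Y. To set lists of the same length side by side, the top 88159 peaks by the authors' −log10 q were taken from each; these are called the equal-length lists, and a rank is a peak's place in that order, 1 being the strongest. A rank past 88159 marks a peak that only the longer list as deposited holds. Of 14 neural stem cell markers, 12 had a peak within 1 kb of a gene end in all 4 lists, against 2 of 8 blood, 5 of 8 neuron, 6 of 8 fibroblast and 6 of 10 spinal cord and hindbrain genes. A peak near a gene does not show that it is expressed. Over the lists in the order given above, neural stem cell markers had 62, 64, 67 and 71 peaks, with 4 members higher and 0 lower in del/del in both sexes, and neuron genes 83, 72, 89 and 73, with 0 higher and 4 lower. Fibroblast genes had 26, 26, 29 and 25 peaks, with 0 members higher and 1 lower. Blood genes had 28, 27, 29 and 28, also with 0 and 1. Spinal cord and hindbrain genes had 23, 22, 23 and 21, with 2 and 2. Among all protein-coding genes with a peak, 8.07% had more peaks and 8.45% fewer in del/del in both sexes. Whether a change in the mix of cells has a part in the Hox counts was not tested.

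At equal length, Hox peaks were more numerous in the del/del list of both sexes. For females, 32 and 40 peaks gave a log2 ratio of 0.32, with a 95% exact binomial interval from -0.39 to 1.04. For males, 25 and 44 gave 0.82 (0.08 to 1.59). These intervals cover counting error only and treat the lists as independent, although lists share many peaks. They are no test of the deletion and do not set the sexes apart. In the lists as deposited the order of the female counts was the other one, 69 in fl/fl and 62 in del/del for a ratio of -0.15 (-0.67 to 0.36), and males had 36 and 44 for 0.29 (-0.38 to 0.97). The female fl/fl list is also the longest and deepest. The shortest list, of del/del males, is whole in both cases.

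**Figure D1:**
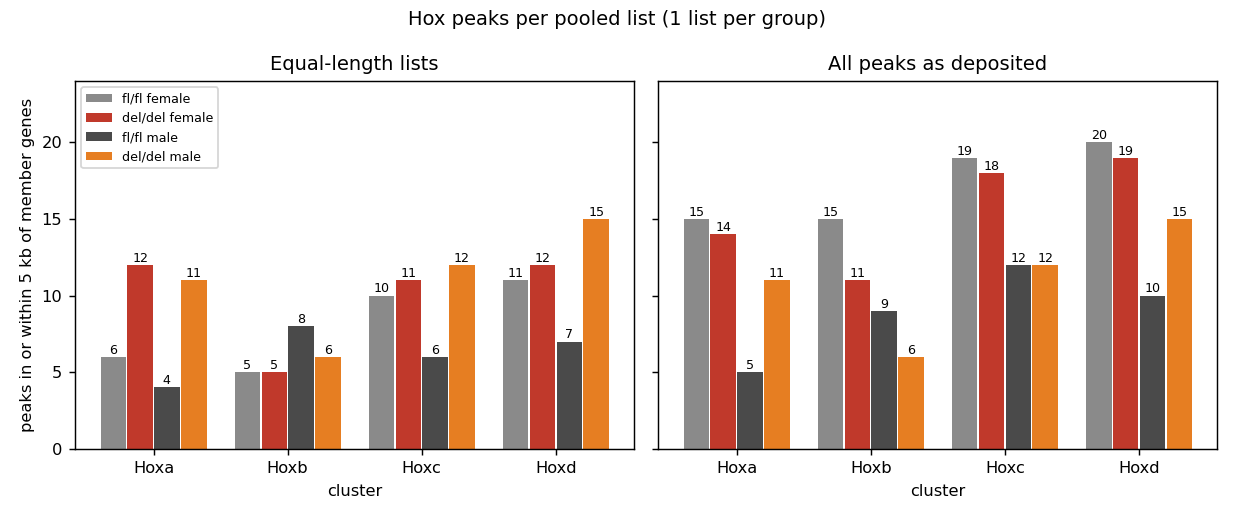
Bars give the number of Hox peaks (y axis) in each cluster (x axis) for the 4 pooled lists, at equal length on the left and as deposited on the right. At equal length Hoxa had 6 and 12 peaks in females and, for males, 4 and 11, while Hoxb had 5 and 5 and then 8 and 6.

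Hoxa had 6 peaks in fl/fl and 12 in del/del females at equal length, a log2 ratio of 1.0 (-0.53 to 2.7). The male lists had 4 and 11, a ratio of 1.46 (-0.3 to 3.57). Hoxd had 11 and 12 peaks in the female lists, 0.13 (-1.18 to 1.45), and 7 and 15 in the male lists, 1.1 (-0.28 to 2.64). Hoxc had 10 and 11 in the female lists, 0.14 (-1.24 to 1.53), and 6 and 12 in the male lists, 1.0 (-0.53 to 2.7). Hoxb had as many or fewer del/del peaks at equal length, with 5 and 5 in the female lists, 0.0 (-2.12 to 2.12), and 8 and 6 in the male lists, -0.42 (-2.22 to 1.3). Every interval for a single cluster includes 0, and the intervals of Hoxb overlap those of the other clusters, so the clusters cannot be ordered by these counts. The female Hoxb count turned with the setting: it was 3 and 7 (1.22) with ranking by pileup, 3 and 5 (0.74) without tied peaks, 5 and 6 (0.26) with ranking by fold enrichment and 4 and 5 (0.32) with no flank. As deposited, Hoxa had 15 and 14 in females and, for males, 5 and 11, Hoxb 15 and 11 and 9 and 6, Hoxc 19 and 18 and 12 and 12, and Hoxd 20 and 19 and 10 and 15. Hoxb was the cluster with fewer del/del peaks in both sexes at that length.

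**Figure D2:**
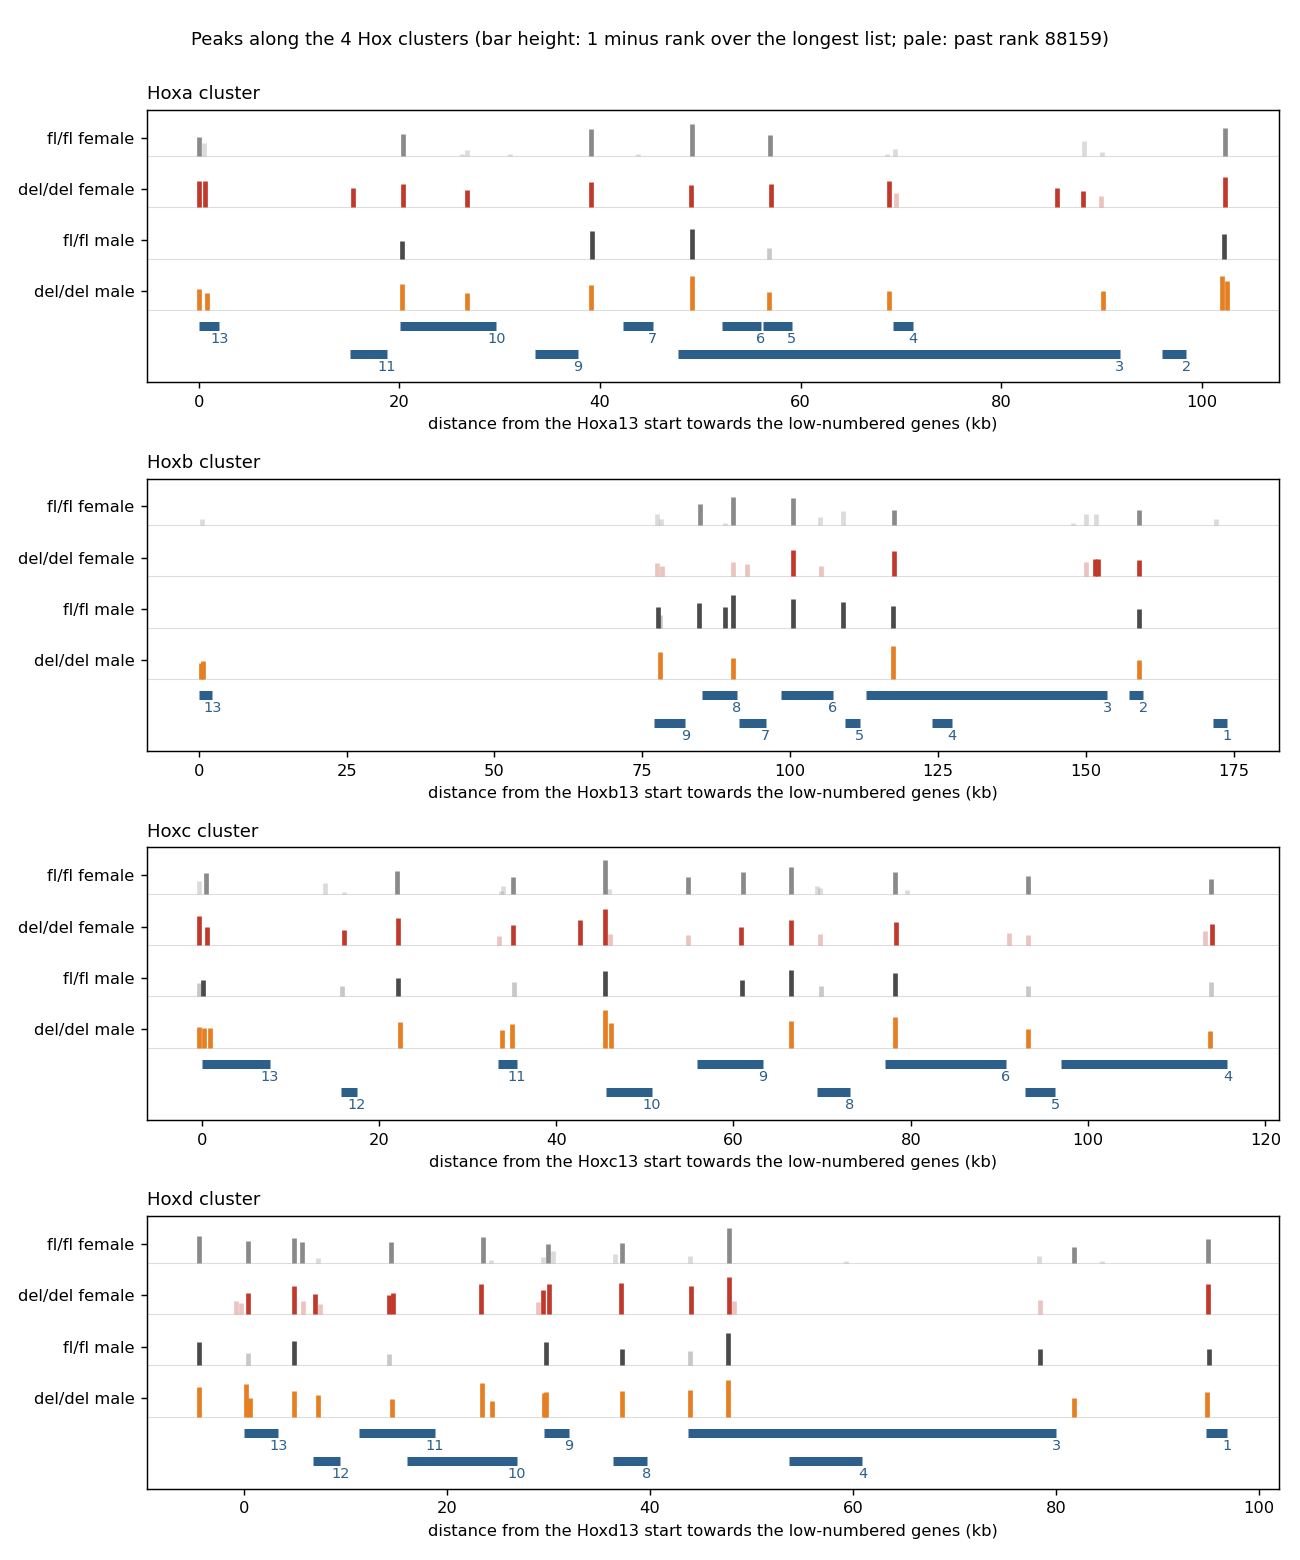
Each panel is 1 cluster from its 13 gene on the left to its low-numbered genes on the right (x axis, distance from the start of the 13 gene in kb), with 1 row of bars for each list and gene bodies in blue. Bar height is 1 minus the rank over the longest list (no units), and pale bars are peaks past rank 88159. In Hoxa several solid del/del bars stand where the fl/fl female list has a pale bar, and between Hoxb9 and Hoxb5 the del/del rows hold fewer solid bars than the fl/fl rows.

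The Hoxa genes span chr6:52162417-52260880 on the minus strand. Hoxa13, which patterns the digits and the hindgut, had 1 peak in fl/fl females, 2 in del/del females, 0 in fl/fl males and 2 in del/del males. Its locus at chr6:52260004-52260567, in the gene body 0.57 kb past the start, ranked 57398 in del/del females and 82140 in del/del males, 94483 in fl/fl females and was not in the fl/fl male list. The neighbouring locus over the Hoxa13 start ranked 75789 in fl/fl females, 55934 in del/del females and 71949 in del/del males, and fl/fl males had no peak there.
Hoxa10, a trunk and limb gene, had 1, 3, 1 and 2 peaks in the same order of lists. Its locus at chr6:52233842-52234355 ranked 112372 in fl/fl females, 80592 in del/del females and 82635 in del/del males. Its stronger locus 0.28 kb past the upstream start was in all 4 lists, at ranks 67349, 63733, 80586 and 56854.
Hoxa4 and Hoxa3, hindbrain and neck genes, share the locus at chr6:52191863-52192313, 0.26 kb before the Hoxa4 start and inside the long Hoxa3 gene. It ranked 126673 in fl/fl females, 57397 in del/del females and 77617 in del/del males. The fl/fl female peak was near the end of its list, with a fold enrichment of 2.22 over the local background against 3.37 in del/del females. Hoxa3 as a whole had 2, 5, 1 and 4 peaks. Its strongest locus, 1.34 kb past its start at chr6:52211426-52211885, was in all 4 lists and ranked 39171 and 66838 in females and, for males, 46246 and 35232, lower in del/del in females and higher in males.
Hoxa9 locus 1 stood beyond the 3′ end of Hoxa9. It alone ranked lower in del/del in both sexes among the 16 Hox loci of all 4 equal-length lists. The ranks were 53270 and 58305 in females and, for males, 52288 and 60617. Hoxa2, the Hox gene with the most anterior limit in the hindbrain, had no peak in its body. Its locus, with summits 3503 to 4021 bp beyond its 3′ end, was in all 4 lists, at 49934, 46044, 60817 and 35310. Hoxa11, Hoxa7, Hoxa6 and Hoxa5 had between 0 and 2 peaks in each list.

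The Hoxb genes span chr11:96194316-96368254 on the plus strand. A locus stood at chr11:96278886-96279069, 0.42 kb before the upstream start of Hoxb8, a trunk and spinal cord gene. The RefSeq start window of Hoxb8 lies further on, at chr11:96281655-96281954. This locus was the only Hox locus in both fl/fl lists and neither del/del list at equal length. It ranked 70066 in fl/fl females and 62624 in fl/fl males and was absent from both del/del lists at any length. As deposited, 2 more loci had this pattern, both in Hoxb. The locus in the Hoxb8 body at chr11:96283095-96283376 ranked 124723 and 73852 in the fl/fl lists, and that 0.3 kb before the start of Hoxb5, at chr11:96303129-96303337, ranked 90431 and 59272.
A stronger locus at the 3′ end of Hoxb8, chr11:96284498-96284724, ranked 50308 in fl/fl females and 88929 in del/del females, and 40296 and 72024 in males. It is the strongest locus of this cluster in both fl/fl lists, and the authors' fold enrichment there was 4.07 and 2.41 in females and, for males, 5.14 and 3.18. Hoxb6 locus 1 ranked 53112, 55980 and 50621 in the first 3 lists and was not in the del/del male list. Hoxb9, Hoxb8 and Hoxb7, whose windows share peaks, each had fewer peaks in del/del in both sexes: Hoxb8 had 2, 0, 3 and 1.
In the low-numbered genes Hoxb3 and Hoxb2, the loci held by all 4 lists ranked higher in del/del in both sexes. Hoxb3, a hindbrain gene, held a locus at chr11:96311640-96312051 in all 4 lists, at ranks 87430 and 59093 in females and, for males, 68569 and 37534. Hoxb2 locus 1 ranked 87431 and 85391 in females and, for males, 79256 and 76417. Both fl/fl female peaks are tied with others at the end of the equal-length list. Hoxb13 had peaks at equal length in del/del males alone, where it had 2, and Hoxb1 and Hoxb4 had none in any equal-length list. Hoxb4 was the only member with none in the lists as deposited.

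The Hoxc genes span chr15:102921131-103036856 on the plus strand. Their strongest locus stood 0.19 kb before the start of Hoxc10, a lumbar gene, at chr15:102966409-102966757, and ranked 35848 in fl/fl females, 29917 in del/del females, 59571 in fl/fl males and 24759 in del/del males. The last of these is the best rank of any Hox peak in any list, with a fold enrichment of 6.11 against 3.88 in fl/fl males. The next locus, inside Hoxc10, was at equal length in del/del males alone, at rank 60326.
Hoxc13, active in hair follicles and nails, had 1, 2, 1 and 3 peaks. Its locus 0.27 kb before the start, at chr15:102920668-102921024, was past rank 88159 in both fl/fl lists (93555 and 92172) and ranked 49605 in del/del females and 71346 in del/del males. Locus 2, just past that start, was in all 4 lists, and its ranks differed in opposite directions, 72890 and 80558 in females and, for males, 85052 and 75097.
Hoxc12 locus 3, beyond the 3′ end of Hoxc12, ranked 66342 and 53327 in females and, for males, 79668 and 58673, and its summits lay 4817 to 4857 bp from the gene, just inside the 5 kb window. Hoxc6 locus 1 ranked 68945 and 63879 in females and, for males, 65878 and 45280. Hoxc8 locus 1 ranked 53445 and 58768 in females and, for males, 57029 and 56787. Hoxc9, a thoracic gene, was the one member of this cluster with fewer peaks in del/del in both sexes, 3 and 2 in females and, for males, 2 and 1. Hoxc11 had 1, 1, 0 and 2 peaks, Hoxc5 1, 0, 0 and 1 and Hoxc4 2, 1, 0 and 2.

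The Hoxd genes span chr2:74668225-74765142 on the plus strand. Hoxd3, active in the hindbrain and neck, held the strongest Hox locus of the fl/fl lists and of del/del females, at chr2:74715776-74716289, 4.03 kb past its start. It ranked 31449 in fl/fl females, 25574 in del/del females, 39110 in fl/fl males and 28583 in del/del males, ahead of all other Hox peaks except the Hoxc10 locus in del/del males. The end of the Hoxd3 sequence shown above, past the start, ran into another locus at chr2:74712026-74712419. That locus ranked 52484 in del/del females and 54667 in del/del males, and 109759 and 91106 in the fl/fl lists.
Hoxd9, a lumbar gene, had the locus over its start at chr2:74697577-74697854, at rank 63181 in del/del females, 64223 in del/del males and 112599 in fl/fl females, with no peak in fl/fl males. The locus just past it was in all 4 lists, at 76517 and 45995 in females and, for males, 66158 and 61296. Hoxd12, a digit gene, had the locus at chr2:74675113-74675838 in both del/del lists, at 73669 and 71085, against 116629 in fl/fl females and none in fl/fl males.
Hoxd10 locus 1, over a start of Hoxd10, ranked 57929 in fl/fl females, 45356 in del/del females and 35274 in del/del males, and was absent from fl/fl males at any length. Hoxd8 locus 1 ranked 74745 and 43890 in females and, for males, 83767 and 58985. Hoxd1 locus 1, over the start shown above, ranked 64186 and 46600 in females and, for males, 83769 and 62379. In each of these the del/del list held the better rank in both sexes.
Hoxd13, a gene of the digits and genitalia, had 4, 3, 2 and 5 peaks. Its start locus ranked 67761 in fl/fl females, 71529 in del/del females, 94466 in fl/fl males and 40221 in del/del males. Locus 5, between Hoxd13 and Hoxd12, ranked 60953 and 51562 in females and, for males, 63249 and 59778. The locus 4446 to 4473 bp before the gene had peaks at 54706, 65058 and 46395 in all lists but that of del/del females. Hoxd11 had 2, 4, 0 and 3 peaks, and Hoxd4 had none in any equal-length list.

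Loci were sorted by position, each going to the first gene that ended at or past it, towards the low-numbered side. Some loci inside the long genes Hoxa3, Hoxb3 and Hoxd3 thus count as central, among them that of Hoxb3 at chr11:96311640-96312051. The posterior section (genes 9 to 13, 16 genes) had 15 loci in fl/fl females, 20 in del/del females, 9 in fl/fl males and 22 in del/del males. The central section (genes 4 to 8, 15 genes) had 13, 12, 12 and 13, and the anterior section (genes 1 to 3, 7 genes) 4, 6, 4 and 5. The surplus of del/del loci at equal length was therefore mostly at the posterior end, and no interval was set on this split. In Hoxa the posterior loci were 2, 5, 1 and 4, in Hoxc 6, 8, 4 and 7 and in Hoxd 7, 7, 3 and 9. Central Hoxb went the other way, with 4 loci and 2 in females and, for males, 6 and 2. As deposited the posterior section had 30 and 29 loci in females and, for males, 15 and 22, and the central one 24 and 21 and then 17 and 13.

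Of the 40 Hox peaks of del/del females, 14 overlapped no fl/fl female peak, which is 35.0%, where 15.3% of all del/del female peaks did so. In males it was 25 of 44, or 56.8%, where the share over all peaks was 16.9%. In the other direction, 7 of 32 fl/fl female Hox peaks (21.9%) overlapped no del/del peak, against 16.9% of all, and 7 of 25 in fl/fl males (28.0%), against 18.7%. Hox peaks are weak, and weak peaks fail to overlap more often in these lists. Within the weaker part of each list (past rank 44079) the shares were 14 of 37 Hox peaks (37.8%) against 29.4% for peaks present in del/del females alone, and 23 of 37 (62.2%) against 32.9% in males. For peaks in fl/fl alone they were 7 of 29 (24.1%) against 33.5% in females and 7 of 23 (30.4%) against 36.3% in males. Up to rank 44079 the counts were small. In females 0 of 3 Hox peaks of either list lacked an overlap, where 1.13% of all del/del and 0.440% of all fl/fl peaks did. In males it was 2 of 7 in del/del, where 0.837% of all peaks did, and 0 of 2 in fl/fl, where 1.09% did. As deposited, 12 of 62 del/del female Hox peaks had no fl/fl overlap, or 19.4% against 12.7%, and 17 of 44 in males, or 38.6% against 12.8%. In the same lists 20 of 69 fl/fl female peaks had no del/del overlap, or 29.0% against 31.2%, and 10 of 36 in males, or 27.8% against 25.5%.

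The same count between the sexes of 1 genotype shows how far lists differ where the genotype is the same. The lists of such a pair also differ in sex, number of libraries and depth. Of the fl/fl female Hox peaks, 11 of 32 (34.4%) overlapped no fl/fl male peak, against 13.6% of all, and 4 of 25 fl/fl male peaks (16.0%) overlapped no fl/fl female one, against 11.8%. Between the del/del lists it was 11 of 40 (27.5%) against 17.8%, and 12 of 44 (27.3%) against 15.6%. These shares, from 16.0% to 34.4%, stand beside 35.0% of del/del female peaks without an fl/fl overlap and 56.8% in males. The fl/fl male list was thus the sparsest in Hox peaks in both kinds of comparison.

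Of the 55 Hox loci, 7 (12.7%) were in both del/del lists and in neither fl/fl list at equal length, where 2.67% of all loci were. They are the loci given above for Hoxa13, Hoxa10, Hoxa3 and Hoxa4, Hoxc13, Hoxd12, Hoxd9 and Hoxd3. In the opposite pattern stood 1 locus (1.82%), that before Hoxb8, where 3.65% of all loci did. As deposited, 0 of 78 Hox loci were in the del/del lists alone, where 0.984% of all loci were. Each of the 7 has a peak past rank 88159 in the longer fl/fl female list. The equal-length list ended at a −log10 q of 6.59 in fl/fl females and 1.39 in del/del males. At the Hoxa13, Hoxa10 and Hoxc13 loci the fl/fl female peak had a higher −log10 q than the del/del male peak. The values were 5.74 against 3.53, 4.01 against 3.33 and 6.03 against 5.22. At the other loci of the 7 it was lower. In the fl/fl lists alone were 3 loci (3.85%), where 5.59% of all were. The female and male comparisons rest on separate fl/fl lists. All 4 lists held 16 of the 55 loci (29.1%) at equal length, where 55.5% of all loci were in all 4, and 25 of 78 (32.1%) as deposited, where 45.5% were.

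Ranks were then compared where all 4 equal-length lists hold a peak. Of these 16 Hox loci, 12 ranked higher in del/del in both sexes, where 26.8% of all such loci did, and 1 (6.25%, Hoxa9 locus 1) ranked lower in both, where 29.7% did. The other 3 (18.8%) ranked in opposite directions in the sexes, where 43.5% of all did. The locus at the 3′ end of Hoxb8 also ranked lower in del/del in both sexes. It is not among the 16, as it ranked 88929 in del/del females, past the equal length. Among loci with a mean rank past 44079, it was 10 of 14 against 26.4% higher and 1 of 14 against 28.9% lower. The 12 were in each cluster: 2 of 4 in Hoxa, 2 of 2 in Hoxb, 3 of 5 in Hoxc and 5 of 5 in Hoxd. The median rank of the 16 was 65264 in fl/fl females and 55816 in del/del females, and 66018 and 57764 in males. Over all loci of all 4 lists the medians differed little, 31772 and 32151 in females and, for males, 31951 and 32224.
Between the sexes of 1 genotype, 11 of 16 fl/fl loci (68.8%) ranked higher in females than in males, where 50.9% of all did, and 7 of 16 in del/del (43.8%), where 49.0% did. The del/del share lies near that over all loci and the fl/fl share above it, and with 16 loci neither was tested. These comparisons of ranks were added after the values were seen, and neighbouring loci of a cluster are not independent.
Loci in either list of a sex were counted too, with a locus in 1 list alone scored as higher there. That part repeats the overlap counts above and compares no ranks. So counted, 31 of 45 (68.9%) were higher in del/del females, where 47.9% of all were, and 38 of 47 (80.9%) in del/del males, where 49.3% were. With loci in both lists only, it was 18 of 25 (72.0%) against 48.1% in females and 16 of 18 (88.9%) against 50.4% in males. With loci in either list, the split in Hoxb was 3 higher and 3 lower in females and, for males, 4 and 6. In Hoxd it was 10 and 4 and then 14 and 1.

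**Figure D3:**
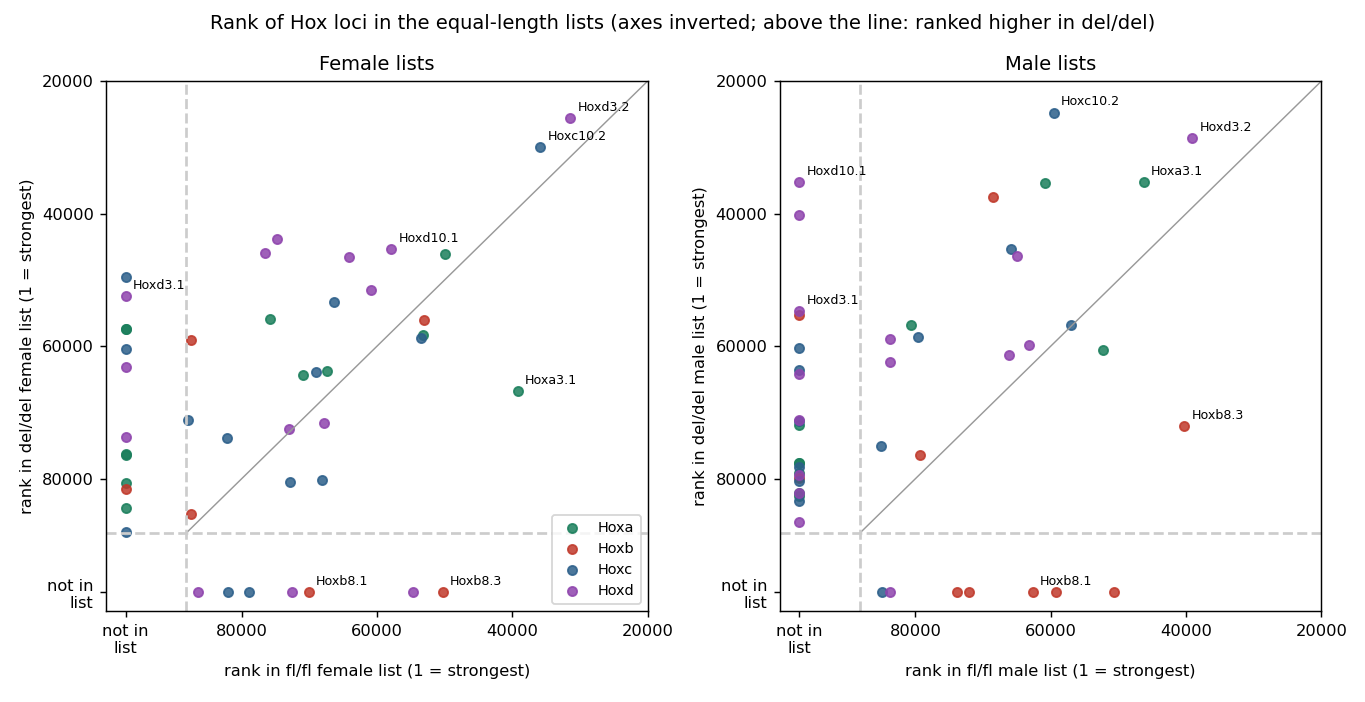
Each point is a Hox locus, with its rank in the fl/fl list on the x axis and in the del/del list on the y axis (both inverted, 1 being the strongest peak), for females on the left and males on the right. Points above the line ranked higher in del/del or were in the del/del list alone, 31 of 45 in females and 38 of 47 in males. Hoxb8.1 and Hoxb8.3, Hoxb8 loci given in the text, lie below it.

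Hox peaks were weak in all lists. None of them was among the 22039 strongest peaks of its list, and those among the 44079 strongest numbered 3 in each female list, 2 in fl/fl males and 7 in del/del males. The authors' fold enrichment, which sets a peak's height over the background around it, had a median of 3.37 in fl/fl females, 3.03 in del/del females, 3.71 in fl/fl males and 3.4 in del/del males, against 4.13, 3.68, 4.55 and 4.29 over all peaks. Equal length removed more of the Hox peaks than of the others: 46.4% of the deposited fl/fl female Hox peaks were kept, against 67.8% of all peaks, and 64.5% against 84.5% in del/del females. The peaks just outside the 5 kb window, from 5893 to 6477 bp away, ranked between 77855 and 82833.

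Of the 38 members, 32 had a peak in their window in fl/fl females, 30 in del/del females, 27 in fl/fl males and 33 in del/del males, 23 had one in all 4 lists and 3 in none (Hoxb4, Hoxb1 and Hoxd4). Windows of neighbours overlap, so 1 peak can count for several members. More peaks in del/del were found in 12 members in females (34.3% of the 35 with a peak), where 20.7% of 18073 protein-coding genes with a peak had more, and in 21 in males (60.0%), where 26.2% had. Fewer were found in 8 (22.9%) in females, where 23.7% had fewer, and in 7 in males, where 21.5% had. Members with more in both sexes were 9 (25.7%), where 8.07% of genes had more in both: Hoxa13, Hoxa10, Hoxa4, Hoxa3, Hoxc13, Hoxd11, Hoxd10, Hoxd9 and Hoxd8. Members with fewer in both were 4 (11.4%), where 8.45% of genes had fewer: Hoxb9, Hoxb8, Hoxb7 and Hoxc9.

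Of the 55 loci, all in or within 5 kb of a member by the rule, 40 had the best summit in a gene body, 31 had it within 1 kb of a start and 5 covered a start; the median span was 451 bp. Start windows from RefSeq, which matched 22 of the 38 members with 24 windows, were overlapped by a peak in 5 cases in fl/fl females, 7 in del/del females, 1 in fl/fl males and 6 in del/del males. Among all 32851 windows the shares were 47.1%, 46.8%, 46.3% and 46.1%, and for the Hox windows 20.8%, 29.2%, 4.17% and 25.0%. The 1 window with a peak in fl/fl males was that of Hoxd1.
The 7 windows with a peak in any list, those of Hoxd13, Hoxd11, Hoxd10, Hoxd9, Hoxd3, Hoxd1 and Hoxa13, held a median of 25 CG dinucleotides, the 17 others 12 and all 32851 windows 7. GGGCGG was found in 41.7% of Hox windows and 35.7% of all, CCAAT in 62.5% and 37.4%, TATAAA in 16.7% and 13.6%, CCCTC in 70.8% and 66.0% and TAATTA in 8.33% and 5.29%. The motifs were sought on both strands as plain letters, and matches to the GC box can share bases with those to CCCTC, as can those to the TATA box with those to the homeodomain motif. A match is a string of letters in the window and not a site of binding.

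The genes that work with, upstream of or on the Hox clusters were counted in the same way, without a test. The 9 Hox cofactor genes, which encode the Pbx, Meis and Pknox partners of Hox proteins, had 85, 77, 81 and 83 peaks, with 0 members higher and 2 lower in both sexes. The 15 upstream genes, such as Cdx and retinoic acid genes, had 75, 73, 88 and 76, with 1 higher and 4 lower. Cyp26b1, which breaks down retinoic acid, was among the 4, with 7 and 4 in females and, for males, 9 and 5. The 28 Polycomb genes had 104, 90, 98 and 100, with 1 higher and 3 lower. Phf19, a PRC2 partner, was that 1, with 2 and 4 in females and, for males, 3 and 4. The 10 Trithorax genes had 31, 35, 32 and 35, with 2 higher and 0 lower; Kmt2a, a methyltransferase that keeps Hox genes active, had 5 and 6 in females and, for males, 5 and 7, and Kdm6b 11 and 12 and then 11 and 13. Over all protein-coding genes with a peak 8.07% had more and 8.45% fewer in both sexes.
At loci in all 4 lists, those ranked higher and lower in both sexes numbered 24 and 17 of 63 for cofactor genes, 14 and 18 of 56 for upstream genes, 24 and 23 of 82 for Polycomb genes and 12 and 4 of 27 for Trithorax genes, where 26.8% of all loci ranked higher and 29.7% lower. Polycomb genes, at 29.3% and 28.0%, and upstream genes, at 25.0% and 32.1%, lie near those shares. Genes flanking the clusters, such as Evx2, Mtx2, Skap2 and Cbx5, had 11 and 11 of 34. The noncoding RNA genes inside the clusters had 8 and 0 of 11, at loci that are largely those of the members. Forebrain and midbrain homeobox genes outside the clusters had 12 and 4 of 26, and hindbrain and spinal cord genes 7 and 2 of 14. Neural stem cell markers had 20 and 10 of 51 and neuron genes 13 and 18 of 54. Fibroblast genes had 4 and 10 of 20 and blood genes 6 and 4 of 20. The part of these shifts in the Hox ranks was not tested.

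**Figure D4:**
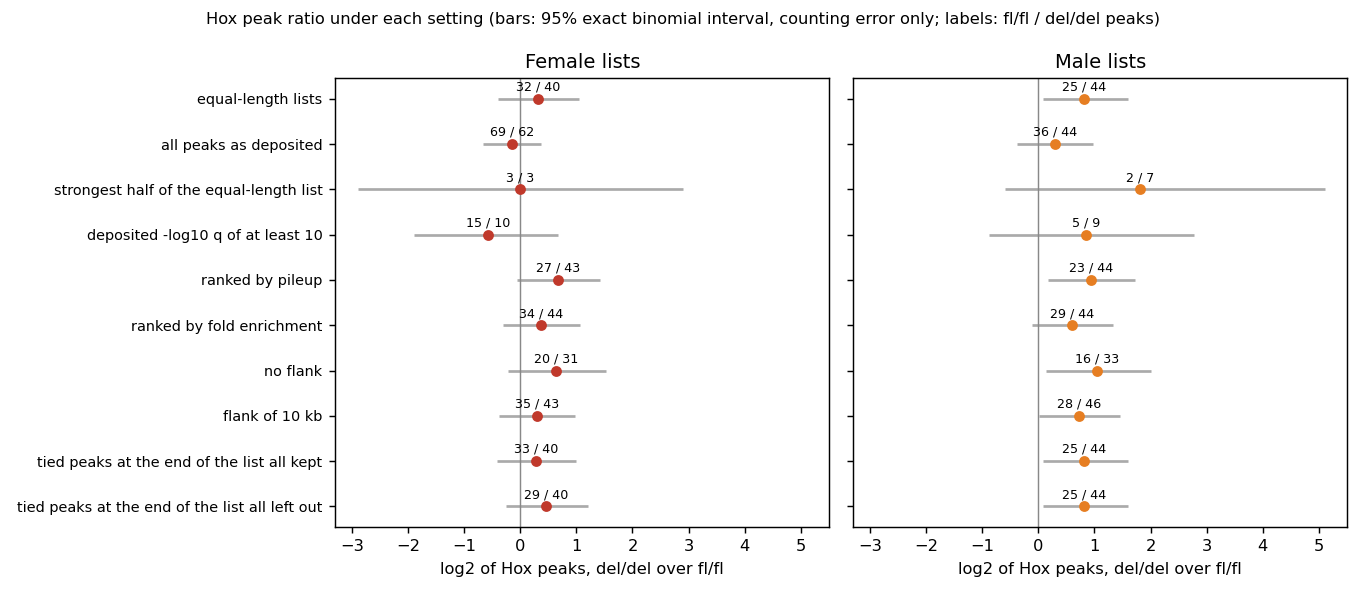
Points are the log2 ratio of Hox peaks, del/del over fl/fl (x axis), under each way of choosing peaks (y axis), with 95% exact binomial intervals for counting error and the 2 counts above each point. The male ratio is above 0 in every setting shown, and the female one is below 0 for lists as deposited (-0.15) and where −log10 q had to reach 10 (-0.58).

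The male ratio was above 0 under all settings tried. Its interval included 0 in the lists as deposited (-0.38 to 0.97), with ranking by fold enrichment (-0.11 to 1.33), among the 44079 strongest peaks (-0.59 to 5.11) and where −log10 q had to reach 10 (-0.88 to 2.77). With the flank left out there were 16 and 33 male peaks for a log2 ratio of 1.04, and with 10 kb 28 and 46 for 0.72. In females the ratio ranged from -0.58, with 15 and 10 peaks once −log10 q had to reach 10, to 0.67, with 27 and 43 peaks ranked by pileup. Within each sex the fl/fl list was the deeper one, and the part of depth in these ratios was not tested.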

How the data were processed

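ATAC-seq was measured in 10 libraries, 3 in each female and 2 in each male group, and each group was given as 1 peak list. The submitters' processing notes name the build mm10 and, with no roles given, edgeR, MACS2, Picard, SAMtools, Bowtie2 2.2.5, Trim Galore 0.4.0 and bcl2fastq. Peaks were called with MACS 2.1.0.20140616, per the file headers, on 1 alignment for each group and without a control, at a q-value limit of 0.05. Tags were moved 75 bp upstream and extended to 150 bp, and 1 tag was kept at a position, so that pileup, a deposited signal height, reached at most 300. Fold enrichment is the ratio of pileup to the background nearby, as deposited, and the −log10 q values are those the authors deposited. Tag size was 53, 63, 62 and 59 bp in fl/fl females, del/del females, fl/fl males and del/del males, per the file headers.

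The 38 member genes, the gene lists and the comparisons were chosen with earlier results of these data known. Peaks were counted once, by summit, in a member or within 5 kb, with genes from the RefSeq table of GRCm38.p6, the assembly of mm10. Equal length meant the 88159 peaks of highest −log10 q, with a −log10 q of at least 6.59, 4.27, 4.52 and 1.39 in the same order. Peaks tied at that limit were ordered by the other deposited values. Overlap meant at least 1 bp. Loci were merged over all deposited peaks. Loci in both del/del or both fl/fl lists alone, loci in all 4 lists and the strongest locus of a cluster were described in full. Of 19 noncoding RNA genes asked for by name 18 were found, and 15 of 17 flanking genes. Ratios carry 95% exact binomial intervals, which cover counting error only, and no p-value was computed. Alternatives were other list lengths, a −log10 q limit of 10, ranking by pileup or fold enrichment, no flank or 10 kb, an overlap of 50% of the shorter peak, and tied peaks kept or left out. The software was matplotlib 3.10.9, scipy 1.17.1, numpy 2.4.6 and pandas 2.3.3 under Python 3.11.15.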

Additional observations from a re-analysis of the deposited data

Results flagged for a closer look

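At 3 of the 16 Hox loci that all 4 equal-length lists hold, the rank was higher in del/del in one sex and lower in the other. That is 18.8% of them, where 43.5% of all such loci did so. Each group is 1 list, and the difference between the sexes was not tested. At Hoxa3 locus 1 the del/del rank minus the fl/fl rank was 27667 in females, a weaker peak in del/del, and -11014 in males, a stronger one. At Hoxc13 locus 2 it was 7668 and -9955. At Hoxc8 locus 1 it was 5323 and -242.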

How the results depend on the processing

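The male ratio stayed above 0 under every setting tried, and the female one was -0.15 in the lists as deposited. Of the 158 values computed under other settings, 136 stayed within the interval or within 1.5 times the count at equal length. The intervals are wide and the settings reuse many peaks, so this is no measure of stability. Changes of sign are among the 136, as for the female ratio, from 0.32 to -0.15, and that of female Hoxa, from 1.0 to -0.1. In the lists as deposited, loci in both del/del lists alone numbered 0, loci in both fl/fl lists alone 3, and fl/fl female Hox peaks without a del/del overlap 20. With only the 44079 strongest peaks of each list the male log2 ratio was 1.81, peaks without an overlap numbered 1 in del/del females, 1 in fl/fl females, 6 in del/del males and 1 in fl/fl males, and loci in both del/del or both fl/fl lists alone 0 and 0. Where −log10 q had to reach 10, the ratio in females was -0.58 and that of Hoxa -2.0, peaks without an overlap numbered 4 in del/del females, 7 in del/del males and 3 in fl/fl males, and the loci 0 and 3. With no flank, fl/fl female peaks without an overlap numbered 2, loci in both fl/fl lists alone 0 and loci ranked lower in del/del in both sexes 0. With 10 kb the loci in both fl/fl lists alone were 2, and with ranking by pileup those ranked lower were 2. The cause of these changes was not tested. With tied peaks all kept the female ratio was 0.28, and with all left out 0.46, settings added after seeing the data. Ratios of a cluster with 0 peaks in a list could not be computed. The male lists rest on fewer tags than the female ones, and the part of depth in weak peaks was not tested. No paired analysis was possible because each group is 1 pooled list, and no library could be left out in turn.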
